A study of Mus musculus with 12 samples.

Results

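The genes described here encode heat shock proteins and other molecular chaperones of mouse embryonic stem (ES) cells. They were taken by symbol from the annotation of the array: every Hspa, Hspb, Hspd, Hspe, Hsph, Hsp90, Dnaja, Dnajb and Dnajc gene, every gene named Cct with a number or an a, and Tcp1. The rule found 77 of the 18524 named genes on the array. Each gene was read from 1 probe, the one with the highest mean over the 12 arrays of the authors' normalized table, and 52 of the 77 passed the detection filter.

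Chaperones bind unfolded or newly made proteins and help them to reach and keep their shape. Hsp70 proteins do so in cycles of ATP use that J proteins (Dnaja, Dnajb and Dnajc) start and nucleotide exchange factors such as the Hsp110 protein Hsph1 reset, while the ring-shaped CCT complex encloses actin, tubulin and other clients. Heat shock factors raise part of these genes when unfolded protein builds up, through heat shock elements in the promoters, and ES cells are known to hold many chaperones at a high level without stress.

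The cells were E14tg2a, an established ES line of strain 129/P2, grown in GMEM with LIF and fetal calf serum. One line carried a fusion of Tcf15 to E47, both basic helix-loop-helix transcription factors, that doxycycline (dox) induces. Dox at 1 µg/mL was given for 0, 8, 12 and 24 h, and to the parental line, described as control cells, for 0 and 8 h. Each of the 6 groups held 2 Illumina BeadChip arrays. The labels do not say whether the 2 were separate cultures or whether the inducible line is 1 clone, so p-values measure only the spread between arrays, which may be technical.

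The 2 arrays of a group had correlations of 0.994 to 0.997 over the genes, a description only, and 30.7% to 34.7% of probes were detected on an array. Of 8 ES cell markers 7 were on the array, and all 7 were detected on all 12 arrays, with Pou5f1 at 11.81 to 12.17 log2 units. Not all were as steady, and Nanog ranged from 9.82 to 11.04. In Tcf15-E47 cells the differences of the 7 from 0 h ran from -1.14 to 0.46 at 12 h and from -0.99 to 0.51 at 24 h. One array stood apart: parental replicate 2 at 8 h, where the summed signal of the 3 fibroblast or mesenchyme markers that passed the filter, of 10 on the array, was 2300 against 178.3 to 226.1 on the other 11 arrays. Most of that sum was Acta2, which reached 11.03 log2 units. Thy1 reached at most 7.53 and Dcn at most 6.58 on any array. Of the 10 markers Postn, Col3a1, Pdgfra and Lum were detected on 0 arrays. Values below are normalized log2 signals, and a difference is the first-named group minus the second with its standard error (SE). A gene is called when the limma test, adjusted by Benjamini-Hochberg over all 10084 genes tested, gives an adjusted p under 0.05. Since bulk RNA was measured, fewer cells of a type and less RNA per cell cannot be told apart.

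The promoters of 4 members are shown because Dnajb1, Hsph1 and Hspb8 carry most of the called differences along the dox course, and Hspe1 holds overlapping 3-unit heat shock elements. Each line gives the 200 bases before the transcription start site, 5′ to 3′, from RefSeq on GRCm38.p6. They lie at chr8:83607975-83608174 (plus strand) for Dnajb1, chr5:149636337-149636536 (minus strand) for Hsph1, chr5:116422865-116423064 (minus strand) for Hspb8 and chr1:55087948-55088147 (plus strand) for Hspe1. Capitals mark letters that match TTCNNGAA or GAANNTTC, the core of a heat shock element, or CAGCTG or CACCTG, E-boxes of the kind that E proteins bind.
Dnajb1: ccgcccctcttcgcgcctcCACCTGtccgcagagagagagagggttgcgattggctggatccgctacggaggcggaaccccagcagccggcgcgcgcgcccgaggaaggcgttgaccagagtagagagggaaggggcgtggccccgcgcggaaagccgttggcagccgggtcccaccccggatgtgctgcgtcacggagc
Hsph1: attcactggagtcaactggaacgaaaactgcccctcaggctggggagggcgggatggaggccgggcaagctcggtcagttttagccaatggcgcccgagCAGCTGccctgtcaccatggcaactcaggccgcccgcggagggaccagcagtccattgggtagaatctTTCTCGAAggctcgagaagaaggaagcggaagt
Hspb8: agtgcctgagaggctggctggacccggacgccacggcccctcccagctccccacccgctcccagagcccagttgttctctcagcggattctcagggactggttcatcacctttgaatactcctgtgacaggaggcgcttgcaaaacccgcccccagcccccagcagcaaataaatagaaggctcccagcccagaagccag
Hspe1: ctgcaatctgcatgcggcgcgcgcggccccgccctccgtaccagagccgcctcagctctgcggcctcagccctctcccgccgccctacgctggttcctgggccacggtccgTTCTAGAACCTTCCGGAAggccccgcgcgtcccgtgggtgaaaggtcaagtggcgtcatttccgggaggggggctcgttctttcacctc

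In these sequences Dnajb1 has an E-box, CACCTG, starting at position -181 from its start site, and no heat shock element core. Hsph1 has CAGCTG at -101 and a core at -33, and its longer window adds a 3-unit element, TTCNNGAANNTTC, at position 37 after the start. The start site used for Hsph1 lies 162 bases from the annotated 5′ end of the gene. Counted from another annotated start of Hsph1, this core is at -54 and the 3-unit element at 16. The Hspe1 promoter, which stands head to head with that of Hspd1, has overlapping 3-unit elements at -89 and -84. The Hspb8 stretch printed holds none of these letters, and its longer window adds a core, GAANNTTC, at position 3 after the start. RefSeq windows of 300 bases (250 before and 50 after the start, both strands searched) were found for 64 of the 77 members. A 3-unit element, TTCNNGAANNTTC or its reverse complement GAANNTTCNNGAA, stood in the windows of 4 of these genes (6.25%), Hspe1, Hspd1, Hsph1 and Dnajb6, against 0.66% of all 27025 genes. The elements of Hspe1 and Hspd1 are the same letters of their shared promoter, so this stretch was counted for both genes. At least 1 core, which each 3-unit element also holds, stood in 29.69% of the members and 16.97% of all genes. CAGCTG was found in 17.19% of members and 18.29% of all genes, and CACCTG in 12.5% against 22.56%. These are matches of letters and do not show that a factor binds there.

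Along the dox course the question was which chaperone genes differed from 0 h in Tcf15-E47 cells. Few did. Parental cells were given dox for 8 h only. At 12 and 24 h the fusion, dox itself and time in culture can therefore not be told apart. After 12 h Dnajb1 was higher and Hspb8 lower than at 0 h, which made 2 called members of 52, where 7.74% of all genes tested were called (3.03% higher and 4.7% lower). After 8 h and after 24 h no member was called by limma. At 8 h the background was 0%, with 3 members and 432 of all genes (4.28%) at an unadjusted p under 0.05, and at 24 h it was 4.19%, with 5 members under that limit (19.4% of all genes). An F test over the 4 times called 4 members, Dnajb1 (adjusted p = 0.00787), Cct2 (0.0155), Hspb8 (0.0291) and Hsph1 (0.0413), where it called 7.49% of all genes. The median difference of the 52 members was -0.03 at 8 h, 0.01 at 12 h and -0.02 at 24 h, while that of all genes was 0, 0.01 and 0.

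**Figure D1:**
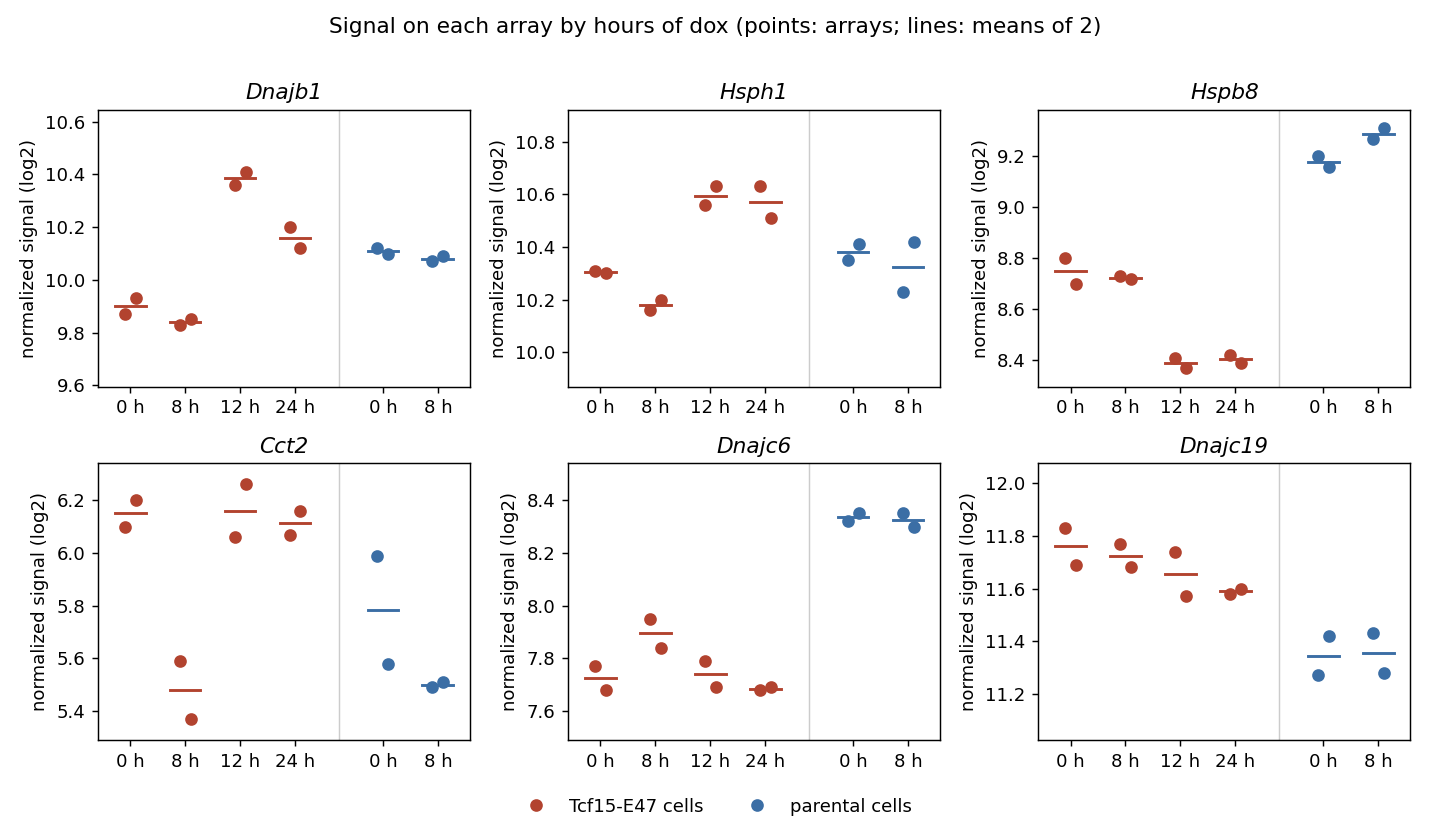
Normalized log2 signal of the 6 chaperone genes called in any comparison, by hours of dox, in Tcf15-E47 cells (red, left of each panel) and parental cells (blue, right). Points are arrays and lines are means of 2 arrays. Dnajb1 is highest at 12 h, Hspb8 is lower at 12 and 24 h than at 0 h and lowest of all groups there, and Dnajc6 is lower in all Tcf15-E47 groups than in both parental groups.

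Dnajb1, the main heat-inducible J protein of the cytosol, measured 10.36 and 10.41 log2 units after 12 h of dox, against 9.87 and 9.93 at 0 h. The groups did not overlap. The difference was 0.49 ± 0.0909 (SE, n = 2 each), or 1.4-fold (limma adjusted p = 0.00682). After 8 h it measured 9.83 and 9.85, a difference of -0.06 from 0 h (adjusted p = 0.999), and after 24 h 10.20 and 10.12, a difference of 0.26 ± 0.0909 that did not pass (adjusted p = 0.141). The 12 h arrays were therefore the highest of the 12, also above the parental arrays, which lay between 10.07 and 10.12. The 24 h difference passed from the authors' normalized values (adjusted p = 0.0271). Against 8 h the 12 h difference was 0.55 ± 0.0909 (adjusted p = 0.00633), a call that held in 1 of 4 fits with 1 array left out, without 8 h replicate 2 (adjusted p = 0.0418), while the others gave up to 0.0593. These comparisons share the 0 h or the 12 h arrays and are not independent of each other. With 1 array left out at a time, the 12 h difference from 0 h kept its size (0.45 to 0.52). It passed in 1 of 4 such fits, without 0 h replicate 2, and the others gave adjusted p of 0.0521 to 0.0619. The authors' deposited table also called this probe at 12 h, with a log2 fold change of 0.459 and an adjusted p of 0.0003.

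Hsph1, the Hsp110 protein that resets Hsp70 and another gene that heat induces, followed a like order of groups. It measured 10.56 and 10.63 after 12 h and 10.63 and 10.51 after 24 h, against 10.16 and 10.20 after 8 h and 10.31 and 10.30 at 0 h. Both late groups lay above both early ones without overlap. Hsph1 rose at 12 h against 8 h, by 0.41 ± 0.1 (limma adjusted p = 0.0361). Against 0 h its differences of 0.29 at 12 h (adjusted p = 0.104) and 0.26 at 24 h (adjusted p = 0.173) did not pass. The 12 h difference did pass from the authors' normalized values (adjusted p = 0.0191), under trend and robust moderation (0.0355) and after median scaling (0.0339), and the 24 h one from the authors' normalized values (0.0445). The authors' deposited table called Hsph1 at 12 h (adjusted p = 0.0273). The call against 8 h was lost whichever array was left out (adjusted p = 0.129 to 0.185) and when only the arrays compared were fitted (0.0579). In the parental line Hsph1 measured 10.23 and 10.42 after 8 h and 10.35 and 10.41 at 0 h, so those groups overlapped.

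No cytosolic Hsp70 gene was called on dox against 0 h. Hspa8, the constitutive Hsp70, was the brightest member and measured 13.80 and 13.80 after 12 h and 13.94 and 13.95 after 24 h, against 13.74 and 13.77 at 0 h. The 24 h difference of 0.19 ± 0.0919 did not pass (adjusted p = 0.291), although the authors' deposited table called it. The other probes of Hspa8 did not move alike. Probe ILMN_2918479 stood at 11.23 and 11.24 after 24 h against 10.73 and 10.49 at 0 h, but its parental 0 h arrays differed from each other (10.37 and 11.53), and probe ILMN_1249586 stood at 12.72 and 12.32 after 24 h against 12.82 and 12.75. Hspa4, of the Hsp110 branch, differed by -0.06 at 12 h and 0.03 at 24 h, and Hspa2, an Hsp70 best known from testis, by 0.07 and -0.07. Hspa1a, the classical stress-induced Hsp70, lay near background, with 4.40 and 4.55 after 8 h against 5.0 and 4.70 at 0 h. It was detected on 0 of the 2 arrays at 8 h and on 1 of 2 at 0 h, and its 8 h value has no fold for that reason. Its near copy Hspa1b was detected on 0 of 12 arrays, and whether the probes keep such near-identical genes apart was not tested.

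Hsp90aa1, the inducible cytosolic Hsp90, measured 11.24 and 11.34 after 12 h, against 11.47 and 11.38 at 0 h, a difference of -0.14 that did not pass. Of 13 heat-inducible genes listed, 12 were on the array and 8 were tested: Hspa1a, Hspa8, Hsph1, Hspb1, Hsp90aa1, Hspd1, Hspe1 and Dnajb1. Their differences ran in both directions. At 12 h 3 of the 8 were positive and 5 negative, with a median of -0.04, and 1 was called higher, while with median scaling 5 were positive and the median was 0.02. At 8 h 6 of 8 were negative, with a median of -0.11 and 0 called.

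Small heat shock proteins hold unfolded proteins without using ATP. Hspb8, which works with Bag3 in handing misfolded proteins to autophagy, measured 8.41 and 8.37 after 12 h and 8.42 and 8.39 after 24 h, against 8.73 and 8.72 after 8 h and 8.80 and 8.70 at 0 h. The 12 h and 24 h arrays lay below all others and did not overlap with them. Hspb8 fell by 0.36 ± 0.0914 on the log2 scale at 12 h (limma adjusted p = 0.0303). At 24 h the difference of -0.35 ± 0.0914 missed the limit (adjusted p = 0.0524), though it passed from the authors' normalized values (0.0102), without the filter (0.0225) and with trend and robust moderation (0.0247). The authors' deposited table called it at 24 h (adjusted p = 0.00561). Its other detected probe, ILMN_2944366, stood at 5.64 and 5.86 after 12 h against 6.19 and 6.10 at 0 h. The call at 12 h was lost in all 4 fits that left out 1 array (adjusted p = 0.0841 to 0.176), with median scaling (0.0746) and when only the arrays compared were fitted (0.0528). The 5 primitive endoderm markers that passed the filter, of 8, moved alongside: their summed signal was 299.1 to 316.9 after 12 h and 313.7 to 323.2 after 24 h, against 411.6 to 422.5 after 8 h and 475.3 to 480.7 at 0 h. Gata4, Sox17 and Pdgfra were detected on 0 arrays, and the part of these cells in the Hspb8 result was not tested.

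Hspb1 (Hsp27) overlapped with 0 h at each time, with differences of -0.11, -0.07 and -0.14 at 8, 12 and 24 h. Hspb6, a small Hsp best known from muscle, measured 6.71 and 6.86 after 12 h and 7.19 and 7.05 after 24 h, against 7.10 and 6.98 at 0 h. Its lower 12 h arrays did not overlap with 0 h, but the difference of -0.26 did not pass (adjusted p = 0.206). Hspb2, Hspb3, Hspb7, Hspb9 and Hspb11 were detected on 0 of 12 arrays. All 3 tested small Hsps were negative at 12 h, with a median of -0.26, against 2 of 3 with median scaling, and 1 was called.

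**Figure D2:**
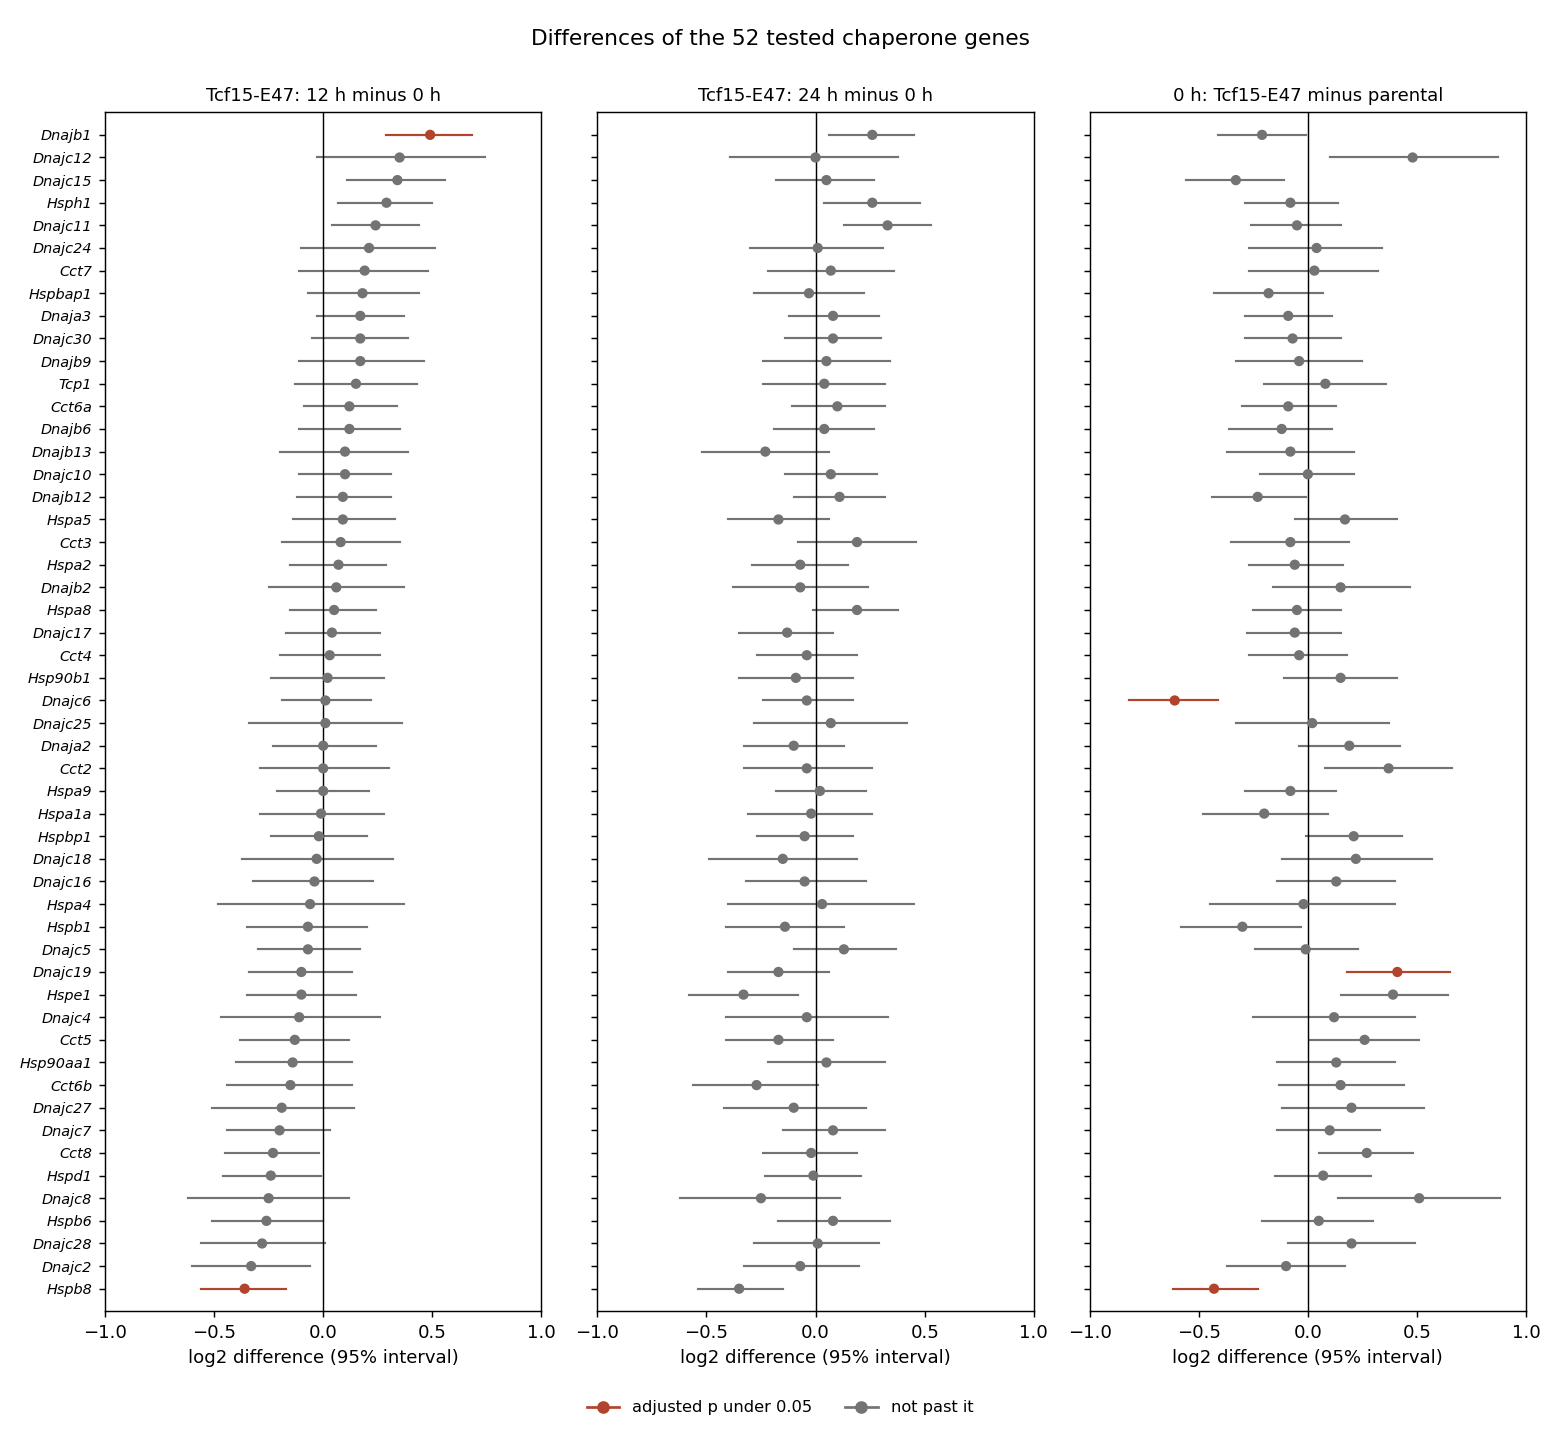
Differences on the log2 scale of the 52 tested chaperone genes, with 95% confidence intervals from limma, for 12 h minus 0 h and 24 h minus 0 h of dox in Tcf15-E47 cells and for untreated Tcf15-E47 minus untreated parental cells. Genes are ordered by the 12 h difference and called genes are red. Most intervals cross zero, and the called genes are Dnajb1 and Hspb8 at 12 h, none at 24 h, and Dnajc6, Hspb8 and Dnajc19 between the lines.

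The J proteins bring clients to Hsp70. At 12 h all 6 tested type B genes had positive differences (median 0.11), also from the authors' normalized values and with median scaling. Of them 1, Dnajb1, was called. Differences were also positive in 30 of all 52 tested members and in 5171 of all 10084 genes. Dnajb9, an ER J protein induced by unfolded protein, differed by 0.17, Dnajb6, which holds back protein aggregates, by 0.12, Dnajb12 of the ER membrane by 0.09 and Dnajb2 by 0.06. The second detected probe of Dnajb9, ILMN_2510875, was not higher, with 5.19 and 5.43 after 12 h against 5.65 and 5.32 at 0 h. Other probes of Dnajb6 did not move alike. Probe ILMN_3107377 stood at 8.11 and 8.07 after 12 h against 8.09 and 8.16 at 0 h. Probe ILMN_2426446 stood at 5.54 and 5.48 after 12 h against 4.98 and 5.12 at 0 h. At 8 h Dnajb6 differed by 0.14. Dnajb13, known from sperm flagella, differed by 0.10 at 12 h and -0.23 at 24 h, where it was detected on 1 of 2 arrays. Of the type A genes, Dnaja2 differed by 0 and the mitochondrial Dnaja3 by 0.17 at 12 h. Dnaja1, Dnajb3, Dnajb4, Dnajb5, Dnajb7, Dnajb8 and Dnajb14 were detected on 0 of 12 arrays.

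Type C J proteins serve special places and clients, and 19 of 25 were tested. None was called along the dox course, and at 12 h 9 were positive and 10 negative. Dnajc2, which sits at the ribosome and also acts on chromatin, measured 9.72 and 9.73 after 12 h, against 9.97 and 10.13 at 0 h, but the difference of -0.33 ± 0.124 did not pass (adjusted p = 0.126). At 24 h it stood at 9.80 and 10.17, overlapping with 0 h. Dnajc12, a helper of aromatic amino acid hydroxylases, differed by 0.35 ± 0.179 at 12 h (adjusted p = 0.249) from dim signals of 6.07 and 5.86, against 5.41 and 5.81 at 0 h. Dnajc8, found with splicing factors, differed by -0.27, -0.25 and -0.25 at 8, 12 and 24 h, and its 12 h arrays stood at 7.37 and 7.74. Dnajc7, which binds both Hsp70 and Hsp90, measured 10.08 and 10.25 after 12 h, against 10.35 and 10.39 at 0 h. None of these differences passed. The genes Dnajc1, Dnajc3, Dnajc5b, Dnajc5g, Dnajc9 and Dnajc14 were detected on 0 of 12 arrays.

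In mitochondria Hspa9 threads and folds imported proteins, and Hspd1 (Hsp60) and Hspe1 (Hsp10) form the folding chamber. All 9 listed mitochondrial chaperones were tested, none was called on dox, and their medians were 0 at 8 h, 0 at 12 h and 0.02 at 24 h. Hspa9 differed by 0 at 12 h and 0.02 at 24 h. Hspe1 measured 11.08 and 11.25 after 12 h and 11 and 10.87 after 24 h, against 11.17 and 11.37 at 0 h, and its lower 24 h arrays (-0.33 ± 0.115, adjusted p = 0.133) did not overlap with 0 h. Hspd1, which shares the head-to-head promoter shown above, measured 12.51 and 12.36 after 12 h and 12.71 and 12.62 after 24 h, against 12.64 and 12.71 at 0 h. Its 12 h difference was -0.24 ± 0.103 (adjusted p = 0.185), and neither gene passed here at either time. The 24 h difference of Hspe1 did pass from the authors' normalized values (adjusted p = 0.0487) and under trend and robust moderation (0.0256). The authors' deposited table did not call it (0.119). The second detected probe of Hspd1, ILMN_2639036, was not low at 12 h, with 8.87 and 9.10 against 8.88 and 8.89 at 0 h. Dnajc15, an inner-membrane J protein, measured 9.63 and 9.54 after 12 h, against 9.27 and 9.23 at 0 h (0.34 ± 0.104, adjusted p = 0.0676), and was back at 9.26 and 9.33 after 24 h. Dnajc11, linked to the shape of the inner membrane, measured 7.46 and 7.55 after 12 h and 7.58 and 7.60 after 24 h, against 7.30 and 7.22 at 0 h. Both late groups lay above 0 h without overlap, with differences of 0.24 (adjusted p = 0.136) and 0.33 (adjusted p = 0.0705) that missed the limit here. Dnajc15 passed at 12 h (adjusted p = 0.0147) and Dnajc11 at 24 h (adjusted p = 0.0338) when the authors' normalized values were fitted. At the same times Dnajc15 also passed with median scaling (0.0301) and moderation by trend and robust fit (0.02), and Dnajc11 without the filter (0.0402). Dnajc30 (0.17 at 12 h) did not pass, and Dnajc28, not above background on either 12 h array, has no measured fold there.

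**Figure D3:**
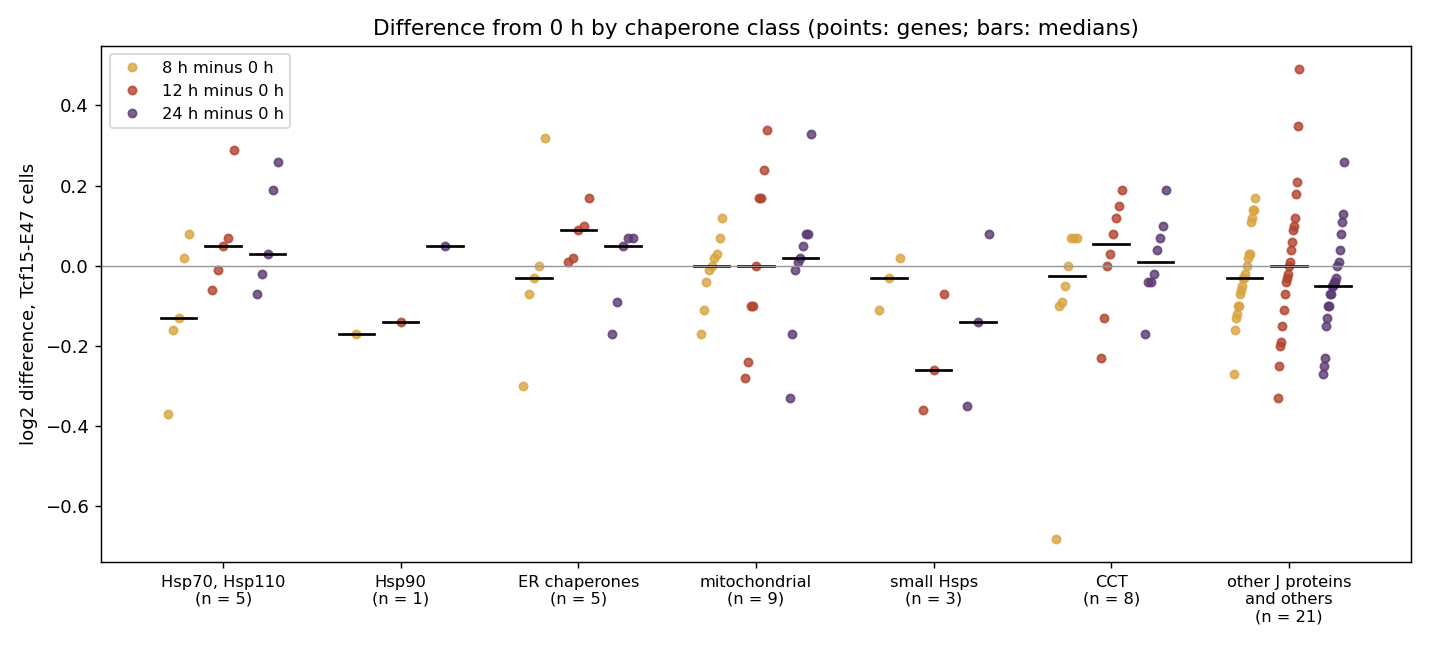
Log2 difference from 0 h in Tcf15-E47 cells after 8, 12 and 24 h of dox for each tested chaperone gene, in classes. Points are genes, bars are medians of a class, and n is its number of tested genes. Medians stay near zero in most classes, the 3 small Hsps have a median of -0.26 at 12 h, and single genes (Dnajb1 at 12 h, Cct2 at 8 h) lie away from their class.

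ER chaperones fold secreted and membrane proteins. All 5 tested of 7 on the array were positive at 12 h, between 0.01 and 0.17 with a median of 0.09, against 4 of 5 with median scaling, and 0 were called. Hspa5 (BiP), the Hsp70 of the ER, measured 5.80 and 5.98 after 8 h, 6.29 and 6.28 after 12 h and 5.92 and 6.12 after 24 h, against 6.11 and 6.27 at 0 h. The 8 h arrays were below 0 h and the 12 h arrays above it, each without overlap. The 12 h difference from 0 h was small, 0.09 ± 0.108, and did not pass (limma adjusted p = 0.649). The difference of 12 h from 8 h, 0.40 ± 0.108, narrowly missed the limit (adjusted p = 0.0583), and that of 8 h from 0 h was -0.30 ± 0.108 (adjusted p = 0.999). Hsp90b1 (Grp94) differed by 0.02 at 12 h and -0.09 at 24 h, and Dnajc10, a disulfide reductase, by 0.10 and 0.07. The dim Dnajc25 measured 5.30 and 5.50 after 8 h, against 5.22 and 4.93 at 0 h (0.32 ± 0.162, adjusted p = 0.999).

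The CCT complex is built of 8 different subunits, all tested. None was called against 0 h. At 12 h Tcp1 differed by 0.15, Cct3 by 0.08, Cct4 by 0.03, Cct5 by -0.13, Cct6a by 0.12, Cct7 by 0.19 and Cct8 by -0.23, and at 24 h the range over all 8 was -0.17 to 0.19. The second detected probe of Tcp1, ILMN_2774140, was lower at 12 h, with 6.82 and 6.58 against 6.89 and 6.97 at 0 h. That of Cct3, ILMN_1247317, stood at 10.71 and 10.83 after 24 h against 10.50 and 10.42 at 0 h, without overlap. Cct2 stood apart from its partners. It measured 5.59 and 5.37 after 8 h, 6.06 and 6.26 after 12 h and 6.07 and 6.16 after 24 h, against 6.10 and 6.20 at 0 h. The 8 h arrays were below those of the other 3 times without overlap. Of all 10084 genes tested, the difference of -0.68 ± 0.136 at 8 h had rank 1 from the lowest, and rank 10 from the authors' normalized values, yet it did not pass (adjusted p = 0.26). Against 8 h, Cct2 rose by 0.68 ± 0.136 at 12 h (limma adjusted p = 0.0151). Cct2 was read by 1 dim probe, detected on all 12 arrays at a mean signal of 135.8 against array medians of 88.98 to 103.07. Without background correction, from the authors' normalized values, the 12 h minus 8 h difference was 0.29 (adjusted p = 0.02) and the 8 h minus 0 h difference -0.29. The call against 8 h held in 1 of 4 fits with 1 array left out, without 8 h replicate 1 (adjusted p = 0.0468), and the others gave up to 0.118. Parental cells also had lower Cct2 after 8 h, with 5.49 and 5.51 against 5.99 and 5.58 at 0 h (-0.28 ± 0.136, adjusted p = 0.812). Cct6b, a testis subunit outside the 8, was detected on 5 of 12 arrays and differed by -0.27 at 24 h, where it was not above background on either array.

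**Figure D4:**
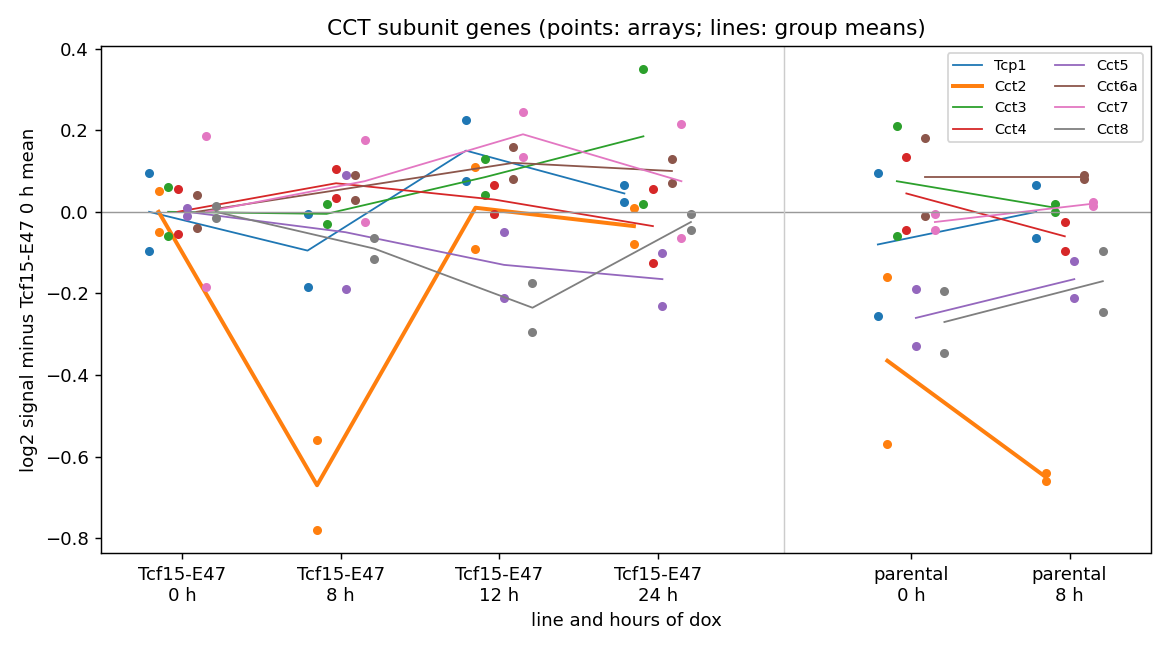
Log2 signal of the 8 CCT subunit genes minus the mean of untreated Tcf15-E47 cells, by line and hours of dox. Points are arrays and lines join group means, with Cct2 drawn thick. Cct2 lies near -0.7 after 8 h of dox in Tcf15-E47 cells, while the other 7 subunits lie between -0.1 and 0.1 in that group's means.

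Between 12 h and 8 h of dox 3 members were called, Cct2, Dnajb1 and Hsph1, all higher, where 4.26% of all genes were called (1.42% higher and 2.85% lower). Their 12 h and 8 h arrays did not overlap, which held for 17 members in the higher direction (27.6% of all genes) and 9 in the lower (26%). Besides these, Hspa5 (0.40, adjusted p = 0.0583), Dnajc2 (-0.36), Hspb8 (-0.34), Dnajc25 (-0.31), Hspb6 (-0.28) and Dnajc7 (-0.20) were the members with the next differences in size at the 2 ends, and none passed. Hspa1a, not above background on either 8 h array, has no measured fold here. Between 24 h and 12 h 0 members were called by limma, where 1.85% of all genes were, and 7 had an unadjusted p under 0.05 (17.2% of all genes). At the lower end were Dnajc12 (-0.36), Dnajb13 (-0.33), Dnajc15 (-0.29), Hspa5 (-0.26) and Hspe1 (-0.23). At the upper end were Hspb6 (0.34), Dnajc7 (0.29), Dnajc2 (0.26) and Hspd1 (0.23), besides Dnajc28, which was not above background on either 12 h array. Dnajb1 differed by -0.23 ± 0.0909 (adjusted p = 0.214).

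The parental 8 h samples had dox without the construct. No member was called by limma, with a background of 0%, and 3 members and 616 of all genes (6.11%) had an unadjusted p under 0.05. Hspe1 differed most on the upper side, with 11.20 and 11.21 after 8 h against 10.94 and 10.80 at 0 h (0.33 ± 0.115, adjusted p = 0.704). Dnajc7 (0.24) and Hspbp1 (0.23), an exchange factor for Hsp70, came next among genes measured in both groups. Dnajc18 and Dnajc28 were not above background on either 0 h array and have no measured fold. On the lower side Cct2 (-0.28) was followed by Dnajc25 (-0.20), Hspbap1 (-0.18), which binds Hspb1, Dnajc11 (-0.12) and Cct4 (-0.11). The second detected probe of Hspbap1, ILMN_1259025, was not lower, with 5.34 and 5.40 after 8 h against 5.23 and 5.24 at 0 h. For 51 of the 52 members the 95% interval of the parental difference lay within 1.5-fold either way, as it did for 92.7% of all genes. Without the parental 8 h replicate 2 that stood apart, the comparison called 0 members as well.

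The difference between the 8 h responses of the lines (Tcf15-E47 minus parental) was called in 0 members by limma, with 3 at an unadjusted p under 0.05 and 515 of all genes (5.11%), a background of 0%. Cct2 (-0.39), Hspa5 (-0.34) and Hspbp1 (-0.34) stood at the lower end, besides Dnajc18 and Hspa1a, each not above background on either array of a group compared. At the upper end were Dnajc25 (0.52), Dnajb12 (0.22), Hspbap1 (0.20), Dnajc11 (0.19) and Cct4 (0.18). The second detected probe of Hspbap1, ILMN_1259025, went the other way. It stood at 5.24 and 5.26 after 8 h against 5.50 and 5.59 at 0 h in Tcf15-E47 cells, and was not lower in parental cells. All 8 tested heat-inducible members were negative, Hspa1a at background among them, with a median of -0.10. With median scaling 6 of 8 were negative, with a median of -0.04. Of all 52 tested members 34 were negative, with a median of -0.06, and the median of all genes was 0. None of the heat-inducible members passed. The intervals were widest here: for 40 of 52 members the 95% interval lay within 1.5-fold, as for 68.6% of all genes.

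Without dox the inducible line differed from its parent in 3 members, Dnajc19 higher and Dnajc6 and Hspb8 lower, where 5.51% of all genes were called (2.47% higher and 3.04% lower). Dnajc6 (auxilin), which strips clathrin from vesicles with Hsp70, measured 7.77 and 7.68 in Tcf15-E47 cells against 8.32 and 8.35 in parental cells. It fell by 0.61 ± 0.0949 on the log2 scale, or 1.53-fold (limma adjusted p = 0.00457). All 8 Tcf15-E47 arrays, at 7.68 to 7.95, lay below the 4 parental ones, at 8.30 to 8.35, and its second detected probe showed the same order, with 7.63 and 7.50 against 8.01 and 8.06. The call was lost only without Tcf15-E47 0 h replicate 2 (adjusted p = 0.0523) among the 4 fits with 1 array left out.

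Hspb8 measured 8.80 and 8.70 in untreated Tcf15-E47 cells against 9.20 and 9.16 in parental cells, a difference of -0.43 ± 0.0914 (limma adjusted p = 0.0209). The gene lower on dox was thus already lower in the inducible line before dox, and the second probe stood at 6.19 and 6.10 against 6.43 and 6.41. The summed primitive endoderm markers were also lower, 475.3 to 480.7 against 546.3 to 681, and their part in this was not tested. Dnajc19, of the motor that pulls proteins into mitochondria, measured 11.83 and 11.69 against 11.27 and 11.42 (0.41 ± 0.108, limma adjusted p = 0.0451). Its groups did not overlap. With 1 array left out at a time, Hspb8 gave an adjusted p of 0.065 to 0.131 and Dnajc19 of 0.079 to 0.231, so both calls were lost in all 4 fits, and fitting only the arrays compared also ended them (0.0965 and 0.117). Dnajc19 was also lost without the filter (0.0594) and with every kept probe (0.0583).

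Several uncalled members also separated the untreated lines. On the higher side were Dnajc8 (0.51), Dnajc12 (0.48), Hspe1 (0.39, adjusted p = 0.0665) and Cct2 (0.37), and on the lower side Dnajc15 (-0.33, adjusted p = 0.0813), Hspb1 (-0.30, adjusted p = 0.179) and Dnajb12 (-0.23). Hspb1 stood at 11.42 and 11.33 in Tcf15-E47 cells against 11.80 and 11.55 in parental cells. Dnajb1 was at -0.21 ± 0.0909 (adjusted p = 0.196). In this comparison 15 members lay higher and 12 lower without overlap, beside 24.2% and 25% of all genes. The authors' deposited table, which gives parental against Tcf15-E47 cells and so the opposite sign, called 6 of the probes used here: Dnajb1, Dnajc15, Dnajc19, Dnajc6, Hspb8 and Hspe1. It called 755 probes of all genes in that comparison.

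How closely the arrays bound the members can be read from the intervals. At 8 h of dox the 95% interval lay within 1.5-fold either way for 47 of 52 members (94.4% of all genes), at 12 h for 48 (80.7%) and at 24 h for 51 (84.2%). The arrays of 12 h and 0 h did not overlap in 16 members on the higher side and 10 on the lower side, and in 29.6% and 27.8% of all genes.

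The partners of the chaperones were read from lists outside the symbol rule. Of the heat shock factors Hsf2 was the only one tested of 3 on the array, and it differed by -0.18 at 12 h (adjusted p = 0.392) and by 0.43 between the untreated lines (adjusted p = 0.0518). None of the 24 tested cochaperones, Bag and Hsp90 cofactors among them, was called in any of the 8 comparisons. Prefoldin, which feeds CCT, had 6 tested genes and none called on dox. Vbp1, one of its subunits, was higher in untreated Tcf15-E47 than parental cells, with means of 8.85 and 8.23 (0.62 ± 0.155, limma adjusted p = 0.0378).

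Among 13 tested ER folding genes 2 were called at 12 h, both higher, where 3.03% of all genes were called higher. Xbp1, a transcription factor of the unfolded protein response, averaged 9.85 after 12 h and 9.24 at 0 h (0.61 ± 0.0937, limma adjusted p = 0.00226). Sdf2l1, a partner of ER chaperones, averaged 7.35 and 6.87 (0.48 ± 0.104, limma adjusted p = 0.0146), and at 24 h it was lower than at 12 h (-0.53, adjusted p = 0.0291). Xbp1 was lower in untreated Tcf15-E47 than parental cells (-0.38, adjusted p = 0.0366). The median of the 13 at 12 h was 0.17 and that of the 5 ER chaperones 0.09, against 0.01 for all genes. Of 7 tested mitochondrial partners Yme1l1, an inner-membrane protease, was called at 12 h, with means of 6.84 after 12 h and 6.37 at 0 h (0.47 ± 0.0934, limma adjusted p = 0.00942), beside the same 3.03% of all genes.

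Of the 77 members 25 were detected on 0 of the 12 arrays and could not be compared. Besides those named above they were Cct8l1, Hspa12b, Hspa13, Hspa14, Hspa1l and Hspa4l. Their normalized signals lay between 4.16 and 4.92 log2 units, the range of background. A probe can fail to bind its transcript, so a gene without signal is not shown to be silent.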

How the data were processed

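Per the labels' protocols, RNA was amplified to biotin-labelled cRNA for Illumina BeadChips. Per the file headers, bead signal intensity and its detection p-value make up the non-normalized table that the authors deposited. The authors' normalized table is in log2 units, made with limma per the submitters' processing notes, and its values show quantile normalization without background subtraction. A further deposited table gives the authors' own log2 fold changes with adjusted p-values.

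The 30854 entry names of the non-normalized table matched 0 of 38561 probes. Signals were therefore recovered by value through monotone curves per array (scikit-learn 1.9.0, Python 3.11.15), and 17051 entries were matched. With the curves refitted without 8525 of these matched entries, 99.12% of the 8525 found the same probe again. That check says nothing of probes without a matched entry. The detection p of every probe was also taken from its recovered signal, by a monotone curve per array. Recovered signals were corrected and quantile normalized by the neqc function (offset 16) from limma 3.58.1, run in R 4.3.3. This recovery was not in the plan. Detection at p under 0.01 on 2 or more arrays was required of a probe (13914 kept), which gave 8528 named genes and 1556 unnamed probes. Group means were fitted over all 12 arrays (6 residual and 7.02 prior degrees of freedom) for 8 comparisons and an F test. Only the limma fit was tried on simulated normalized values, for 24 h against 0 h. The recovery of signals, the normalization and the filter were not simulated. Array number limits the precision.

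The text names members called anywhere, the 5 highest and 5 lowest differences of each comparison, and a set of core chaperones. The members and lists were chosen with earlier results of these data known. Hsp90ab1 and Hspa12a were not analysed here. Alternatives tried were the authors' values, median scaling, no filter, trend and robust moderation, every kept probe, only the arrays compared, the replicate block and leaving out each array.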

Additional observations from a re-analysis of the deposited data

How the results depend on the processing

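Counts of called members moved with several choices. From the authors' normalized values they were 4 at 12 h, 5 at 24 h, 5 for 12 h against 8 h, 1 for 24 h against 12 h and 6 between the untreated lines. Trend and robust moderation gave 6 at 12 h, 2 at 24 h, 5 for 12 h against 8 h and 8 between the untreated lines. Over all genes it called 1095, 631, 747 and 845 in that order. Without the filter 2 were called at 24 h. With only the arrays compared, 1 was called at 12 h and 1 between the untreated lines, beside 928 and 149 of all genes. Leaving out 1 array gave 0 to 1 at 12 h, 0 to 1 for 12 h against 8 h, 0 to 2 between the untreated lines and 1 to 2 in the F test, and 0 in each other comparison, where fewer arrays are the change made. The cause of the other shifts was not tested. Over all genes, counts also differed by over 1.5 times. At 8 h, where 0 were called, the authors' values gave 4, no filter 2, every kept probe 2 and trend and robust moderation 5. At 24 h, with 423, no filter gave 269, only the arrays compared 254 and 1 array left out 98 to 161. For 12 h against 8 h, with 430, the authors' values gave 685, trend and robust moderation 747 and 1 array left out 81 to 145. For 24 h against 12 h, with 187, these gave 366, 405 and 3 to 27, no filter 109 and only the arrays compared 47. Between the untreated lines, with 556, trend and robust moderation gave 845, no filter 352, only the arrays compared 149 and 1 array left out 83 to 333. The F test, with 755, gave 1245 under that moderation and as few as 247 with 1 array left out, without 12 h replicate 1. The count at 12 h, 780, became 185 to 300 with 1 array left out. In the parental line, with 0, the moderation called 1, leaving out 0 h replicate 1 called 24 and leaving out 8 h replicate 1 called 15. For the difference between the 8 h responses, with 0, the authors' values called 2, the moderation 3, leaving out parental 8 h replicate 1 called 10 and leaving out parental 0 h replicate 1 called 1. Median scaling gave 80 higher and 122 lower genes for 24 h against 12 h, against 94 and 93. It gave 134 and 310 at 24 h, against 163 and 260. The member median for 24 h against 12 h became -0.114, against -0.037. The replicate numbers did not pair the arrays (correlations of deviations from -0.103 to 0.17), and with the replicate block the counts were 2 at 12 h, 3 for 12 h against 8 h, 3 between the untreated lines, 4 in the F test and 0 elsewhere. Of 3680 values of single members under alternatives, 33 lost and 32 gained the call. Among values called in either fit 0 changed sign, and changes of sign between uncalled values were not counted. Dim signals near background limit genes such as Cct2 and Hspa1a.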
